A study of Danio rerio with 18 samples.

Results

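Gene expression in regenerating zebrafish heart tissue was compared between 9 and 6 days post amputation (dpa). The fish were of the TAB line, a hybrid of AB and Tubingen, and the apex of the ventricle was resected before the new tissue was collected. Both groups carry the same injury and differ in the labels by the day of collection, with 2 biological replicates each. The comparison used 4 of the 6 heart RNA libraries among 18 samples of the series. All genes with an average FPKM (fragments per kilobase, relative to all mapped fragments of a library) of at least 3 at 6 or at 9 dpa were tested, which were 9155 of 15268 genes in the table. Of the rest, 6111 were below that level and 1744 of these were at 0 in all 4 libraries. Another 2 genes, hbaa1 and mb, were left out because each had 0 FPKM in the libraries of one time point and over 1000 FPKM in the other. The age of the fish, the number pooled per library and the hour of collection are not given in the sources used here.

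Zebrafish regrow an amputated ventricular apex. A clot first seals the wound, macrophages and neutrophils enter it, the epicardium and endocardium are activated, and cardiomyocytes at the border lower their sarcomere and oxidative metabolism genes, divide and later mature again. Heart muscle draws most of its energy from mitochondria, where fatty acid oxidation and the tricarboxylic acid (TCA) cycle feed the respiratory chain. Cortisol acts through the glucocorticoid receptor, and fkbp5 and klf9 are among the genes that it induces in many tissues.

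The tissue label was checked on marker genes. The 6 cardiomyocyte markers in the table summed to 33075 and 30361 FPKM at 6 dpa and to 44474 and 37714 FPKM at 9 dpa, and none was at 0 in any library. Myl7, the atrial and ventricular myosin light chain of the fish heart, was at 13278 and 14030 FPKM at 6 dpa and at 18843 and 17816 FPKM at 9 dpa. Between 10162 and 10683 genes reached 1 FPKM in a library. Across the 9155 genes, Pearson's r of log2(FPKM + 1) was 0.949 between the replicates at 6 dpa and 0.971 at 9 dpa, and lay between 0.945 and 0.960 for the 4 pairs of a 9 and a 6 dpa library. FPKM does not carry the read counts, so the precision of a value is known only from the spread of 2 replicates. In bulk tissue, fewer cells of a type and less RNA per cell cannot be told apart.

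Replicate 2 at 6 dpa stood apart in part of the skin genes. Among 24 skin epithelium genes other than keratins, the median difference of replicate 2 from replicate 1 at 6 dpa was 1.89 on the log2 scale, beside -0.13 over all genes tested. Cldne, a claudin of tight junctions, was at 38.9 FPKM in that library and between 0.0848 and 1.04 FPKM in the other 3. Cdh1, the epithelial cadherin, was at 13.9 FPKM there and between 0.357 and 0.766 FPKM elsewhere. Neither passed the FPKM filter without that library. Of the 24 genes, 12 passed it through the 6 dpa group alone. The abundant epidermis marker icn differed, at 2604 and 2969 FPKM at 6 dpa and at 2381 and 3714 FPKM at 9 dpa. The 7 epidermis markers in the table summed to 2987 and 3581 FPKM and then to 2629 and 4133 FPKM. Both icn and this sum were highest in 9 dpa replicate 2. Replicate 1 at 6 dpa in turn carried more of the cell division genes, with a median difference of replicate 2 from replicate 1 of -1.1 over 37 DNA replication genes.

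The 3 criteria of the study decided whether a gene was called: its unadjusted P value was below 0.05, it differed by 1.5-fold or more, and it passed the FPKM filter. "Rose" and "fell" are used for called genes only, and all log2 fold changes are 9 dpa minus 6 dpa on the log2(FPKM + 1) scale, which understates changes of low genes. By limma, 611 of 9155 genes (6.67%) were called, 326 higher at 9 dpa (3.56%) and 285 lower (3.11%). At the P value alone 719 genes (7.85%) passed. Of the called genes, 194 changed by at least 2-fold, 69 upward and 125 downward. After Benjamini-Hochberg adjustment in limma over all genes tested, 2 genes (0.0218%) remained under 0.05, fkbp5 and cmc4. The adjusted p-values of the other 609 called genes lay between 0.167 and 0.633. Leaving out 9 dpa replicate 1 lowered the genes called higher to 160, and without 6 dpa replicate 2 those called lower were 444, or 189 without 9 dpa replicate 2. In an alternative called rescaling without haemoglobin, those genes were removed and each library was rescaled to the same sum. It moved the median of all genes from -0.01 to -0.16 and turned the share called higher from 53.4% to 20.1% of calls. The removal and the rescaling were not tested apart. Some of the gene lists below are therefore also given relative to the median of all genes. Over the main fit and 15 alternatives, 72 genes were called every time, 47 of them higher and 25 lower.

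**Figure D1:**
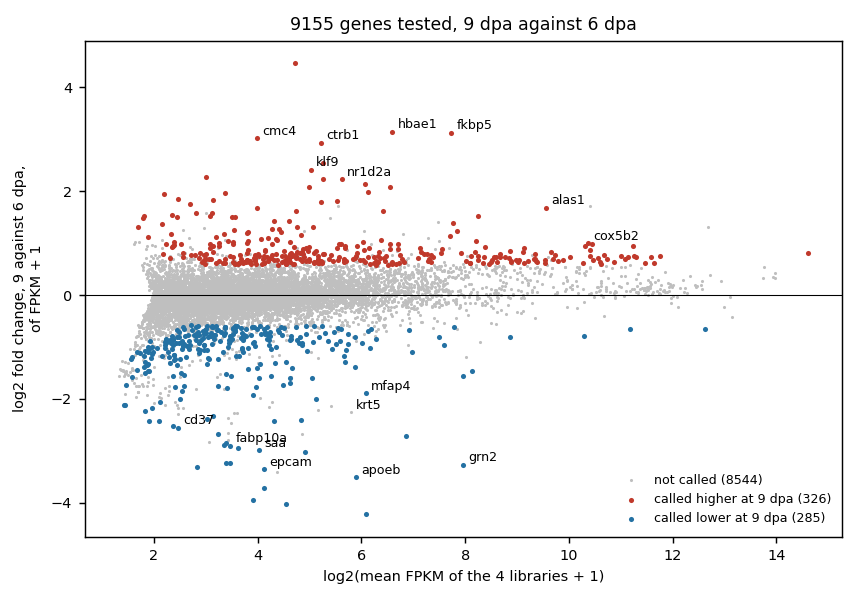
Log2 fold change of FPKM + 1 at 9 against 6 dpa (vertical axis) over the log2 mean FPKM + 1 of the 4 libraries (horizontal axis), with 1 point for each of 9155 genes. The 326 genes called higher are red and the 285 called lower are blue; fkbp5, cmc4, ctrb1 and hbae1 lie near 3, and grn2, apoeb and epcam below -3.

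Fkbp5 gave the smallest p-value of the comparison. The gene encodes a co-chaperone of HSP90 that holds steroid receptors in a less active state, and it is itself a target of the glucocorticoid receptor. It was at 39.9 and 45.7 FPKM at 6 dpa (42.8 ± 4.06, SD, n = 2) and at 377 and 385 FPKM at 9 dpa (381 ± 5.41, SD, n = 2). The groups were far apart and each pair of replicates was close. In limma this was a log2 fold change of 3.13 (SE 0.22), or 8.74-fold, with an adjusted p of 0.0297, which ranged from 0.00987 to 0.431 over the alternatives. The tissue at 0 dpa, which was not in the fit, held 590 and 432 FPKM.

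Some other targets of the glucocorticoid receptor rose with it. Klf9, a Krüppel-like transcription factor, was at 6.44 and 12.8 FPKM at 6 dpa and at 46.5 and 60.2 FPKM at 9 dpa, a log2 fold change of 2.41 (SE 0.33, limma adjusted p = 0.287). Both 9 dpa values were more than 3 times the higher 6 dpa value, where a rule that named the gene required a ratio of at least 1.5. Tsc22d3, which encodes the leucine zipper protein GILZ, was at 80.2 and 197 FPKM at 6 dpa and at 292 and 265 FPKM at 9 dpa (log2 fold change 1.14). Ddit4, an inhibitor of the growth kinase complex mTORC1, was at 9.39 and 33.9 FPKM and then at 90.5 and 47.3 FPKM (log2 fold change 1.80). Hsd11b2, the enzyme that inactivates cortisol, was at 196 and 211 FPKM at 6 dpa and at 373 and 319 FPKM at 9 dpa (log2 fold change 0.76). Of 16 glucocorticoid response genes tested, 5 were called higher and 0 lower, beside 3.56% higher over all genes. The median log2 fold change was 0.51, or 0.52 above the median of all genes. Of the 16 values 12 were positive and 4 negative, down to -0.57. In 9 genes both 9 dpa libraries lay above both 6 dpa libraries, and in 4 they lay below. These shares were 18.4% and 18.1% over all genes. At an unadjusted p under 0.05 in limma 5 were higher and 1 lower. The list includes fkbp5, which was known to change when the list was drawn up. Cebpd and nfkbiab, at 42.8 and 71.6 FPKM in 6 dpa replicate 1, were at 183 and 245 FPKM in replicate 2 and between 203 and 278 FPKM at 9 dpa, so 6 dpa replicate 1 was the low library and neither was called. Without 6 dpa replicate 1 the median of the list was 0.20, or 0.15 above that of all genes. It was 0.80 without 6 dpa replicate 2, 0.45 without 9 dpa replicate 1 and 0.74 without 9 dpa replicate 2. After rescaling without haemoglobin 4 members were called higher and 2 lower. Ddit4 was not called without 6 dpa replicate 1 (log2 fold change 0.93) or 9 dpa replicate 1 (1.34), and hsd11b2 was not called without 9 dpa replicate 1 (0.65). Tsc22d3 lost its call without any library except 6 dpa replicate 2, and stood at 0.50 without 6 dpa replicate 1. Without 6 dpa replicate 2, cebpd (2.44) and nfkbiab (1.79) were called higher.

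Clock genes gave 3 calls, all higher at 9 dpa. Nr1d2a, which encodes a nuclear receptor of the REV-ERB type that represses clock activators, was at 12.4 and 20.5 FPKM at 6 dpa and at 94.8 and 65.1 FPKM at 9 dpa. The lower 9 dpa value was over 3 times the higher 6 dpa value, where the rule that named the gene required a ratio of at least 1.5. The log2 fold change was 2.23 (SE 0.32, limma adjusted p = 0.287). Its relative nr1d1 was at 2.75 and 3.90 FPKM and then at 2.01 and 2.49 FPKM, far below the 55.2 and 47.6 FPKM at 0 dpa, and was not called. Bhlhe41, another repressor of the clock, rose from 4.74 and 5.34 FPKM to 9.44 and 11.8 FPKM, and stayed below the 35.2 and 34.3 FPKM at 0 dpa. Per1b was at 7.20 and 5.67 FPKM at 6 dpa and at 4.36 and 3.70 FPKM at 9 dpa, against 52.3 and 38.2 FPKM at 0 dpa. Per2 was at 11.9 and 12.7 FPKM and then at 13.0 and 13.3 FPKM, and neither period gene was called. Among 19 clock repressors and PAR bZIP output genes 2 were called higher and 0 lower (10.5%, beside 3.56% of all genes called higher), with a median log2 fold change of -0.02. This became 2 higher and 3 lower without 6 dpa replicate 2. A list of 12 clock activators and nfil3 genes had 1 called higher (8.33%, beside the same 3.56%). This was nfil3-5, of a family whose mammalian member represses clock output genes, and so no activator was called. It was at 20.8 and 43.1 FPKM at 6 dpa and at 64.6 and 57.0 FPKM at 9 dpa. Without 6 dpa replicate 1 neither bhlhe41 (0.87) nor nfil3-5 (0.48) was called, and nfil3-5 also lost its call without either 9 dpa library (0.90 and 1.08). After rescaling without haemoglobin the call of this list was 1 lower in place of 1 higher.

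**Figure D2:**
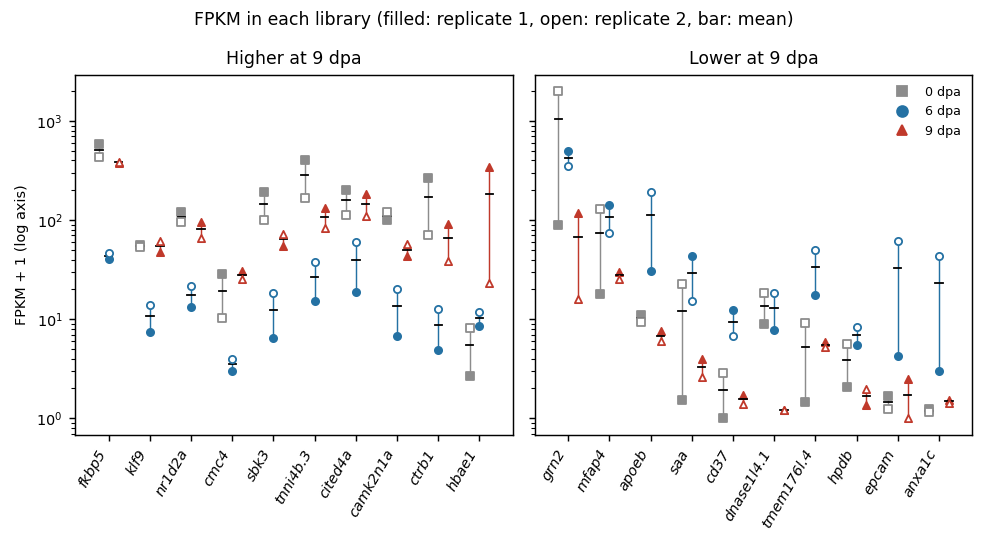
FPKM + 1 on a log axis for 10 named genes that were higher (left) and 10 that were lower (right) at 9 dpa, with filled symbols for replicate 1, open symbols for replicate 2 and a bar at the mean. Among fkbp5, klf9, nr1d2a and cmc4 the replicates are closest in fkbp5, whereas epcam, anxa1c and apoeb were high at 6 dpa mainly in replicate 2. Separation of the time points was part of the rule that named these genes. The 0 dpa values were not in the fit.

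Respiratory chain genes gave the most calls of the 41 gene lists examined. Of 88 subunits tested, 40 were called higher at 9 dpa and 0 lower, that is 45.5% beside 3.56% of all genes called higher. The log2 fold change was positive for 87 of 88, beside 48.2% of all genes, and its median was 0.58, beside -0.01 over all genes. In 83 of 88 both 9 dpa libraries lay above both 6 dpa libraries, which held for 18.4% of all genes. The subunits summed to 59659 and 58208 FPKM at 6 dpa and to 94831 and 87130 FPKM at 9 dpa. The replicates of a time point were much closer to each other than the time points were. Relative to the median of all genes the list stood at 0.60, and at 0.59 after rescaling without haemoglobin. The count of calls was less stable: 9 after that rescaling, 7 in the fit of all 6 libraries and 18 without 9 dpa replicate 1.

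Each of the 5 complexes took part. Subunits were grouped by gene symbol, and the counts called stand beside 3.56% of all genes called higher. Those beginning with nduf, counted here as complex I, the NADH dehydrogenase, had 15 of 37 called and a median of 0.56. Ndufa4l, of the ndufa4 family, was at 1717 and 1669 FPKM at 6 dpa and at 2972 and 2667 FPKM at 9 dpa (log2 fold change 0.73, SE 0.16, limma adjusted p = 0.497). It is in this group by symbol alone, as proteins of the ndufa4 family are subunits of cytochrome c oxidase. Complex II, the succinate dehydrogenase that is also an enzyme of the TCA cycle, had 2 of 5 called, with a median of 0.55. Its catalytic subunit sdha was at 236 and 215 FPKM and then at 374 and 385 FPKM. Sdhda, by comparison, was at 10.2 and 8.23 FPKM against 9.03 and 9.69 FPKM. Complex III had 6 of 9 called and a median of 0.68, among them cyc1, the cytochrome c1 gene, at 572 and 387 FPKM at 6 dpa and at 951 and 700 FPKM at 9 dpa. Cyc1 was not called without 6 dpa replicate 2 (0.51) or 9 dpa replicate 1 (0.57).

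Complex IV, the cytochrome c oxidase, had 11 of 17 subunits with a cox symbol called, beside 3.56% of all genes called higher. The median of the 17 was 0.64. Cox5b2 was at 952 and 814 FPKM at 6 dpa and at 1870 and 1649 FPKM at 9 dpa, a log2 fold change of 1.00 (SE 0.18, limma adjusted p = 0.436). Cox5ab was at 386 and 389 FPKM and then at 660 and 792 FPKM, and cox6b1 at 1129 and 802 FPKM and then at 1648 and 1809 FPKM. These 3 subunits were called in every alternative. The one subunit of the whole chain with a negative value was cox4i2, at 38.7 and 46.5 FPKM at 6 dpa and at 43.9 and 34.5 FPKM at 9 dpa, where the groups overlapped. Complex V, the ATP synthase, had 6 of 20 called and a median of 0.57. All 20 subunits were higher in both 9 dpa libraries than in both 6 dpa libraries, beside 18.4% of all genes.

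**Figure D3:**
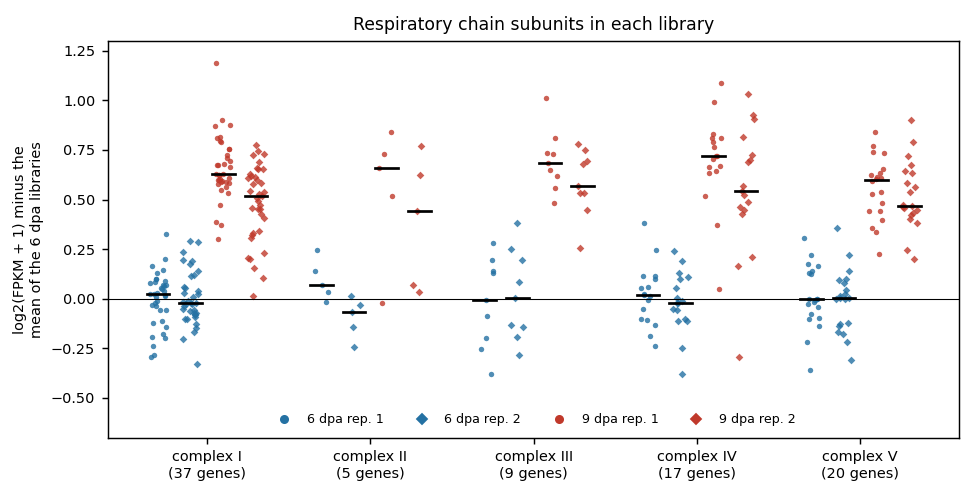
Log2(FPKM + 1) of each respiratory chain subunit minus its mean in the 6 dpa libraries, by complex (horizontal axis) and library (blue, 6 dpa; red, 9 dpa; circles, replicate 1; diamonds, replicate 2; bar, median). Complexes were assigned by gene symbol, which places ndufa4l under complex I. In each complex both 9 dpa medians lie above both 6 dpa medians.

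Cmc4, the other gene past the adjusted p-value, encodes a small protein of the mitochondrial intermembrane space with paired cysteine motifs. It was at 2.00 and 3.00 FPKM at 6 dpa (2.50 ± 0.707, SD, n = 2) and at 29.9 and 24.3 FPKM at 9 dpa (27.1 ± 3.98, SD, n = 2). The log2 fold change was 3.02 (SE 0.24), or 8.09-fold, with a limma adjusted p of 0.0382 that ranged from 0.0191 to 0.685 over the alternatives, and the gene was called in all of these. At 0 dpa the replicates differed, at 27.6 and 9.23 FPKM. Chchd7, a protein of the same family of cysteine motifs, was at 29.9 and 32.7 FPKM at 6 dpa and at 59.2 and 59.7 FPKM at 9 dpa, and was likewise called every time.

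The pathways that feed the chain gave calls in the same direction. In fatty acid oxidation 6 of 24 genes (25%, beside 3.56% of all genes) were called higher and 0 lower, with a median log2 fold change of 0.47. Etfb, a subunit of the flavoprotein that hands electrons from acyl-CoA dehydrogenases to the chain, was at 281 and 313 FPKM and then at 518 and 514 FPKM. Cpt1b, the carnitine transferase that admits fatty acids to muscle mitochondria, was at 51.1 and 51.7 FPKM at 6 dpa and at 78.6 and 82.7 FPKM at 9 dpa, still below the 260 and 131 FPKM at 0 dpa. In the TCA cycle with pyruvate dehydrogenase 6 of 23 (26.1%) were called higher and 0 lower (median 0.44), and all 23 had a positive log2 fold change. Idh2, the mitochondrial isocitrate dehydrogenase, was at 2110 and 1672 FPKM and then at 3503 and 2762 FPKM. Pdk2b, a kinase that switches pyruvate dehydrogenase off, rose the most of this list, from 178 and 126 FPKM to 584 and 322 FPKM (log2 fold change 1.53, SE 0.34). Without 9 dpa replicate 1 the calls were 2 in fatty acid oxidation and 1 in the TCA cycle, and idh2 (0.56) and cpt1b (0.68) were then not called. Idh2 and cpt1b also lost their calls without 6 dpa replicate 2 (0.56 and 0.65), and cpt1b without 9 dpa replicate 2 (0.60). In the fit of all 6 libraries 1 gene was called in each.

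Further mitochondrial genes lay on the same side. Of 73 mitochondrial ribosomal proteins 9 were called higher and 0 lower (12.3%, beside 3.56% of all genes called higher), with a median of 0.33 and 72 positive values. Between 2 and 5 were called with 1 library left out, all higher. After rescaling without haemoglobin 0 were called and the list stood 0.34 above the median of all genes, as before. Cytosolic ribosomal proteins, by comparison, had 1 of 83 called, rpl27a, and a median of 0.13, and rpl27a was not called without 6 dpa replicate 2 (0.78) or either 9 dpa library. Alas1, the first enzyme of haem synthesis outside red blood cells, was at 388 and 316 FPKM at 6 dpa and at 1414 and 894 FPKM at 9 dpa, above the 445 and 232 FPKM at 0 dpa. Its log2 fold change was 1.68 (SE 0.27, limma adjusted p = 0.372), and it was called in every alternative. Ucp3, an uncoupling protein of muscle mitochondria, was at 13.3 and 20.6 FPKM and then at 41.9 and 34.7 FPKM. Taco1, a translational activator of a cytochrome c oxidase subunit, went the other way, from 5.58 and 7.11 FPKM to 2.09 and 2.05 FPKM. The cardiomyocyte marker sums given above were also higher at 9 dpa, and their part in the mitochondrial differences was not tested.

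In the contractile apparatus, 2 of 28 sarcomere genes were called higher and 0 lower (7.14%, beside 3.56% of all genes called higher), and 25 had a positive value and the median was 0.41, which was 0.42 above that of all genes. Myh7, a slow myosin heavy chain, was at 123 and 71.4 FPKM at 6 dpa and at 219 and 142 FPKM at 9 dpa, and csrp3, a Z-disc protein, at 400 and 263 FPKM and then at 671 and 515 FPKM. Tnni4b.3, a troponin I gene outside the list, went from 14.1 and 36.7 FPKM to 130 and 82.7 FPKM (log2 fold change 2.13, SE 0.46), below the 407 and 166 FPKM at 0 dpa. No sarcomere gene was called without 9 dpa replicate 1, and 8 were called without 9 dpa replicate 2. Myh7 (0.52) and csrp3 (0.55) were also not called without 6 dpa replicate 2. Of 12 calcium handling and natriuretic peptide genes 2 were called higher, and 0 without any one library other than 9 dpa replicate 2, where 4 were. With all 4 libraries the share of that list called was 16.7%, beside 3.56% of all genes called higher. Nppb, a peptide released by stretched heart muscle, was at 436 and 350 FPKM and then at 890 and 539 FPKM. Nppa was at 3616 and 1848 FPKM and then at 4290 and 1955 FPKM, with replicate 1 the higher library at both times. Nppb kept its call only without 9 dpa replicate 2, and stood at 0.46 without 9 dpa replicate 1. Of 26 glycolysis genes 2 were called higher, eno3 and pfkmb (7.69%, beside 3.56% of all genes called higher). Without 9 dpa replicate 1 neither was called (0.66 and 0.56) and 2 other members were called lower, whereas 8 were called higher without 9 dpa replicate 2. Eno3 was also not called without 6 dpa replicate 1 (0.49), nor pfkmb without 6 dpa replicate 2 (0.56).

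Several single genes rose by about 2 or more on the log2 scale. Sbk3, a kinase gene, was at 5.47 and 17.4 FPKM at 6 dpa and at 53.9 and 71.9 FPKM at 9 dpa (2.53, SE 0.48). Camk2n1a, an inhibitor of the calcium-dependent kinase CaMKII, was at 5.84 and 19.4 FPKM and then at 42.7 and 55.8 FPKM (2.08, SE 0.49). Cited4a, a transcriptional co-regulator, was at 18.0 and 58.5 FPKM and then at 184 and 108 FPKM (2.08, SE 0.54), and was not called without 9 dpa replicate 1 (1.69). Without 6 dpa replicate 1, camk2n1a stood at 1.29 and cited4a at 1.25, both still called. In each of the 3 genes, 6 dpa replicate 1 was the lowest library. Both 9 dpa libraries were above both at 6 dpa, which the rule that named these genes requires. Sid4, a secreted immunoglobulin domain gene, went from 16.7 and 41.2 FPKM to 127 and 90.0 FPKM, which was also above the 20.3 and 7.39 FPKM at 0 dpa. Ap4s1, a subunit of an adaptor complex for vesicles, was at 5.16 and 0 FPKM at 6 dpa and at 8.51 and 14.2 FPKM at 9 dpa, with a log2 fold change of 2.28. It became 0.96 when 6 dpa replicate 2 was left out and 3.59 when replicate 1 was, and the call was lost without either 9 dpa library (2.61 and 1.94).

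Immediate early genes varied between the 6 dpa libraries. Of 43 tested, 7 were called higher and 1, klf11a, lower (18.6%, beside 6.67% of all genes called either way), with a median of 0.02. Nr4a3, an orphan nuclear receptor, was at 3.29 and 2.84 FPKM at 6 dpa and at 20.5 and 10.5 FPKM at 9 dpa (log2 fold change 1.96, SE 0.33), with close replicates at 6 dpa. Its relative nr4a1 was at 6.26 and 51.0 FPKM and then at 70.5 and 55.1 FPKM, and was not called. Fosab, a subunit of AP-1, was at 12.7 and 83.4 FPKM and then at 18.2 and 12.03 FPKM, so that 6 dpa replicate 2 alone was high. The median of the list in 6 dpa replicate 2 minus replicate 1 was 0.81, and 17 genes were called higher and 4 lower without 6 dpa replicate 2. The balance turned when replicate 1 was left out, to 1 higher and 4 lower (6 dpa) or 2 higher and 4 lower (9 dpa). Klf11a lost its call without 6 dpa replicate 1 (-0.62) or 9 dpa replicate 1 (-0.58), nr4a1 was called higher without 6 dpa replicate 2 (3.13), and fosab lower without 6 dpa replicate 1 (-2.42).

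Genes of macrophages and neutrophils were lower at 9 dpa. Of 41 tested, 16 were called lower and 0 higher, or 39.0% beside 3.11% of all genes called lower, and the median was -0.74, which is 0.73 under that of all genes. In 28 of 41 both 9 dpa libraries lay below both 6 dpa libraries, beside 18.1% of all genes. The list summed to 4618 and 3644 FPKM at 6 dpa and to 2629 and 2251 FPKM at 9 dpa, and the 7 marker genes to 472 and 455 FPKM and then to 263 and 211 FPKM, with no marker at 0. The count called lower was 9 without 6 dpa replicate 1, 31 without 6 dpa replicate 2 (with 1 other gene called higher), 9 without 9 dpa replicate 2 and 3 in the fit of all 6 libraries, in which the 0 dpa replicates are far apart in these genes.

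Mfap4, a secreted protein used as a macrophage marker in zebrafish, was at 140 and 73.1 FPKM at 6 dpa and at 29.1 and 24.4 FPKM at 9 dpa. The higher 9 dpa value was under the lower 6 dpa value by more than 2-fold, and the log2 fold change was -1.89 (SE 0.34, limma adjusted p = 0.436). Mpeg1.1, a pore-forming protein of macrophages, was at 88.8 and 76.7 FPKM and then at 45.4 and 41.3 FPKM. Ctss2.2, a lysosomal cathepsin, was at 181 and 161 FPKM and then at 76.5 and 82.4 FPKM (log2 fold change -1.1, SE 0.22). Tnfb, an inflammatory cytokine, was at 19.2 and 10.2 FPKM and then at 3.41 and 5.25 FPKM. In all 4 genes the groups did not overlap, which held for all 611 called genes and for 36.5% of all genes tested. The 0 dpa replicates lay on either side, for mpeg1.1 at 13.9 and 171 FPKM.

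Members with larger folds were less even between replicates. Grn2, a granulin, was at 499 and 354 FPKM at 6 dpa and at 118 and 14.9 FPKM at 9 dpa, a log2 fold change of -3.27 (SE 0.84, limma adjusted p = 0.527). It became -1.82 without 9 dpa replicate 2, and the gene lost its call without 6 dpa replicate 1 (-3.03). Apoeb, an apolipoprotein of lipid-loaded macrophages that fish skin also expresses, was at 29.5 and 192 FPKM and then at 6.59 and 4.99 FPKM. Its log2 fold change of -3.51 (SE 0.77) became -2.18 without 6 dpa replicate 2, the library high in part of the skin genes, and it was called in every alternative. Lyz, the lysozyme of neutrophils and macrophages, was at 9.27 and 134 FPKM and then at 52.8 and 22.4 FPKM, with 6 dpa replicate 2 highest and replicate 1 lowest. Mpx, the neutrophil peroxidase, was low throughout, at 4.61 and 4.21 FPKM and then at 2.63 and 1.52 FPKM, and neither was called. Lyz was called lower when 6 dpa replicate 1 was left out (-1.92) and higher when 6 dpa replicate 2 was (1.79), and mpx was called lower without 9 dpa replicate 1 (-1.1).

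Interferon response and antigen presentation genes fell in part. Of 34 tested, 10 were called lower and 0 higher (29.4%, beside 3.11% of all genes called lower), with a median of -0.57. Mxc, an antiviral GTPase, was at 17.4 and 13.2 FPKM at 6 dpa and at 5.23 and 2.51 FPKM at 9 dpa (log2 fold change -1.79, SE 0.32). Tap2a, which carries peptides to class I molecules, was at 28.1 and 21.8 FPKM and then at 11.4 and 11.6 FPKM. Psmb9a, a catalytic subunit of the immunoproteasome, was at 46.3 and 35.9 FPKM and then at 19.8 and 18.0 FPKM. The class II chaperone genes cd74a and cd74b fell as well, cd74b from 589 and 592 FPKM to 328 and 346 FPKM, and cd74a was not called without 6 dpa replicate 1 (-0.74). Rsad2, a strongly interferon-induced gene, was at 18.1 and 6.90 FPKM and then at 14.9 and 15.0 FPKM and was not called, except without 6 dpa replicate 1 (1.01). The count called lower was 0 in the fit of all 6 libraries, where 0 dpa replicate 2 was high and replicate 1 low (mxc at 96.4 and 0.609 FPKM), and between 7 and 15 when 1 library was left out.

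Chemokines, interleukins and their receptors gave 17 calls of 45 tested (37.8%, beside 3.11% of all genes called lower), all lower, with a median of -0.62. The filter takes part in this: 13 of the 45 passed it through the 6 dpa group alone, and over the 31 that passed it in both groups the median was -0.34. Ccl19a.1, a lymphoid chemokine, was at 6.33 and 9.15 FPKM at 6 dpa and at 1.27 and 0 FPKM at 9 dpa (log2 fold change -2.52, SE 0.50). Cxcl32b.1 was at 8.76 and 7.39 FPKM and then at 0.724 and 3.14 FPKM, and lost its call without 6 dpa replicate 1 (-1.65). Il2rga, the common gamma chain of interleukin receptors, was at 16.4 and 15.5 FPKM and then at 8.63 and 8.24 FPKM, with the tightest groups, and was not called without 6 dpa replicate 1 (-0.81). Ccl25b, among the more abundant, was at 87.8 and 81.8 FPKM and then at 61.9 and 43.4 FPKM, and was called only with all 4 libraries or without 9 dpa replicate 1. Without 9 dpa replicate 2 there were 11 called lower and 2 higher, and in the fit of all 6 libraries 5 lower. Cxcl32b.1 stood at -1.13 without 9 dpa replicate 1, still called.

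Of 11 lymphocyte genes 3 were called lower, il2rga, zap70 and nkl.3 (27.3%, beside 3.11% of all genes). The filter takes part here too: 4 of the 11 passed it through the 6 dpa group alone, zap70 and nkl.3 among them, and over the 7 that passed in both groups the median was -0.34. Zap70, a kinase of the T cell receptor, was at 4.29 and 3.64 FPKM and then at 2.12 and 0.793 FPKM, and was not called without 6 dpa replicate 1 (-0.97) or 9 dpa replicate 2 (-0.67). Nkl.3, an NK-lysin, was at 9.07 and 1.84 FPKM at 6 dpa and listed at 0 in both 9 dpa libraries, and it did not pass the filter without 6 dpa replicate 1. Cd37, a tetraspanin of white blood cells outside the lists, was at 11.2 and 5.70 FPKM at 6 dpa and at 0.722 and 0.381 FPKM at 9 dpa (log2 fold change -2.55, SE 0.43). Saa, the acute phase protein serum amyloid A, was at 41.9 and 14.2 FPKM and then at 2.98 and 1.59 FPKM (-2.99, SE 0.49). Both genes were called in every alternative.

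**Figure D4:**
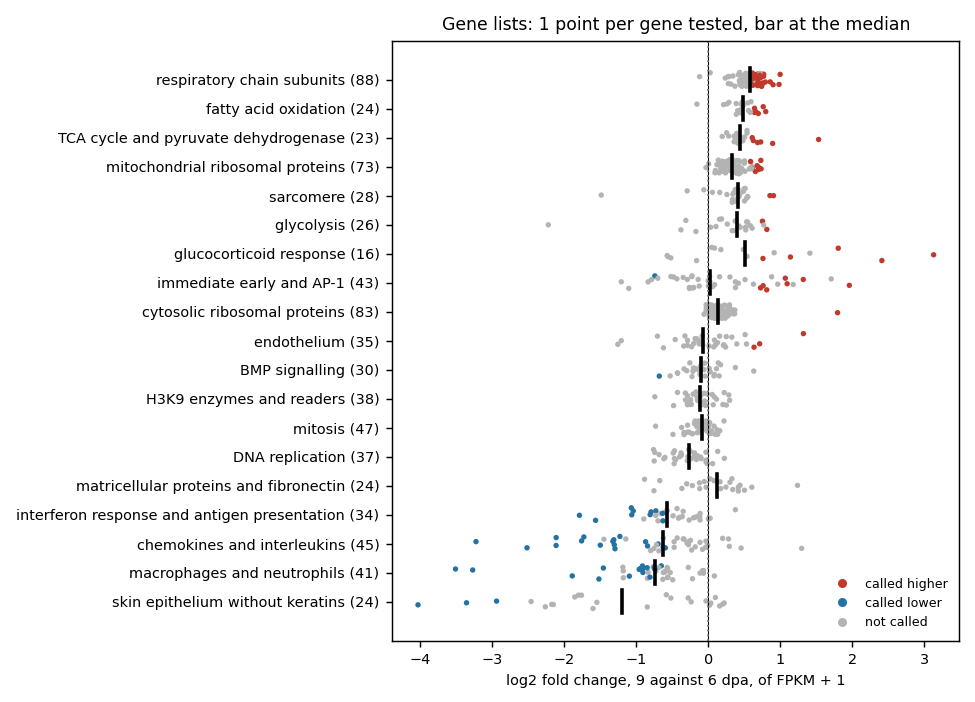
Log2 fold change of FPKM + 1 at 9 against 6 dpa for the tested members of 19 gene lists, with 1 point per gene (red, called higher; blue, called lower; grey, not called) and a bar at the median. The mitochondrial lists lie between 0.33 and 0.58, the 3 immune lists between -0.57 and -0.74, and the skin list at -1.20. Over the 12 skin genes that passed the filter in both groups the median was -0.01.

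Some of the strongest falls were of skin genes in one 6 dpa library. Epcam, the epithelial cell adhesion molecule, was at 3.20 and 60.7 FPKM at 6 dpa and at 1.47 and 0 FPKM at 9 dpa (log2 fold change -3.36, or -1.42 without 6 dpa replicate 2 and -5.30 without replicate 1). It was not called without 9 dpa replicate 1 (-4.01) or replicate 2 (-2.71). Anxa1c, an annexin of the epidermis, was at 2.00 and 42.4 FPKM and then at 0.531 and 0.440 FPKM, and aqp3a, a water and glycerol channel, at 3.23 and 25.9 FPKM and then at 1.20 and 1.04 FPKM. Neither was called without 9 dpa replicate 1 (-2.98 and -2.38) or replicate 2 (-2.90 and -2.28). Aqp3a stood at -1.0 instead of -2.33 when 6 dpa replicate 2 was left out. Atp1a1a.3, a sodium pump subunit, had the same pattern, at 1.26 and 35.8 FPKM and then at 0.216 and 0.316 FPKM. It was likewise not called without either 9 dpa library (-2.79 and -2.91). Ponzr3 was at 2.01 and 87.9 FPKM at 6 dpa and listed at 0 in both 9 dpa libraries, and it too lost its call without either of them. Anxa1c, atp1a1a.3 and ponzr3 did not pass the filter without 6 dpa replicate 2. Of 24 skin genes tested 3 were called lower and 0 higher (12.5%, beside 3.11% of all genes called lower), and 12 had passed the filter through the 6 dpa group alone. Those called lower were 22 when 6 dpa replicate 1 was left out, 1 when replicate 2 was, and 0 when either 9 dpa library was. The filter was applied anew in each of these fits, so the genes tested were not the same 24 throughout. The median of the list was -1.20, -0.01 over the 12 members that passed in both groups, and -0.08 without 6 dpa replicate 2.

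Krt5, a keratin of basal epidermis that is also studied in the wounded fish heart, was at 12.04 and 186.8 FPKM at 6 dpa and at 12.3 and 7.04 FPKM at 9 dpa. Replicate 2 at 6 dpa was the high library, and replicate 1 at 6 dpa lay beside 9 dpa replicate 1. The log2 fold change was -2.26 (SE 1.1, limma adjusted p = 0.684), and -0.34 without 6 dpa replicate 2, whereas without 6 dpa replicate 1 it was -4.19 and the gene was called lower. Of 9 keratins tested 0 were called in limma, also at an unadjusted p under 0.05, but 5 were called lower without 6 dpa replicate 1. Krt4, an abundant keratin, was at 366 and 311 FPKM and then at 233 and 412 FPKM, and krt8 at 1637 and 1495 FPKM and then at 1312 and 1849 FPKM, each with overlapping groups.

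Genes of other tissues also varied by library. Of 18 skeletal muscle genes 3 were called lower and 1, acta1b, higher (22.2%, beside 6.67% of all genes called either way). Acta1b was not called without 6 dpa replicate 2 (0.34) or either 9 dpa library (0.76 and 0.75). None of the list was called without 6 dpa replicate 2 or without 9 dpa replicate 2, and 7 were called lower without either of the others. Mylpfa, a fast muscle myosin light chain, was at 12.2 and 34.2 FPKM at 6 dpa and at 9.73 and 2.72 FPKM at 9 dpa, and pvalb2, a parvalbumin, at 14.8 and 32.0 FPKM and then at 9.68 and 4.34 FPKM. Neither was called without 6 dpa replicate 2 (-1.06 and -1.07) or 9 dpa replicate 2 (-1.0 and -1.1). Fabp10a, the fatty acid binding protein of liver, was at 1.66 and 37.7 FPKM and then at 0.844 and 0 FPKM, with 6 dpa replicate 2 alone high, and was not called without either 9 dpa library (-3.34 and -2.46). It did not pass the filter without 6 dpa replicate 2. Ctrb1, a chymotrypsinogen of the exocrine pancreas, was at 3.89 and 11.6 FPKM at 6 dpa and at 90.6 and 38.1 FPKM at 9 dpa (log2 fold change 2.93, SE 0.55), and at 267 and 70 FPKM at 0 dpa. Of 3 pancreatic genes tested it was the one called: ela2 was at 0.489 and 3.41 FPKM and then at 2.72 and 3.78 FPKM, and cpa5 at 6.78 and 19.2 FPKM and then at 11.4 and 6.38 FPKM. Ela2 was called higher without 6 dpa replicate 2 (1.5).

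**Figure D5:**
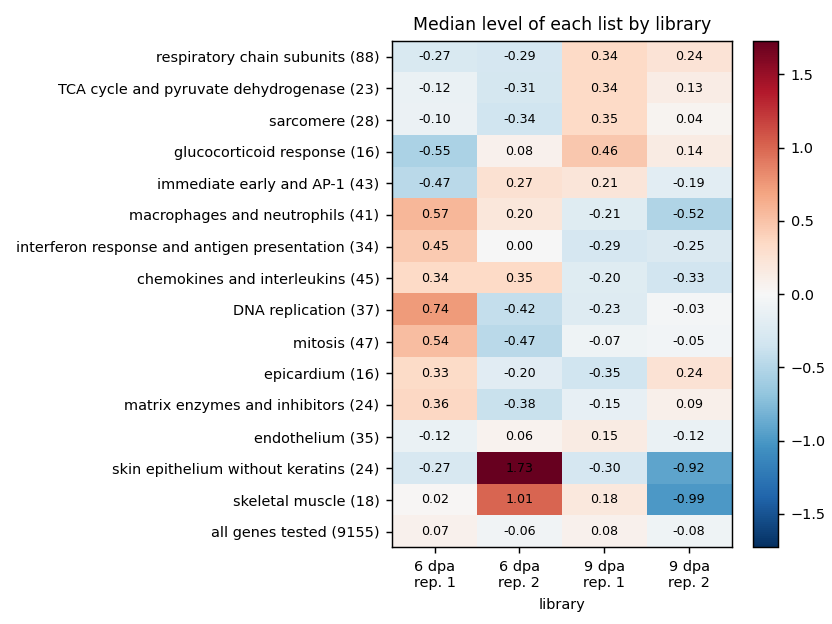
Median over the tested members of each list (number in brackets) of log2(FPKM + 1) minus the gene's mean of the 4 libraries, by library. Respiratory chain subunits separate the time points. In the median, the skin list is high in 6 dpa replicate 2 alone (1.73) and DNA replication in 6 dpa replicate 1 alone (0.74). The filter takes part in the skin value, as 12 of its 24 genes passed it through the 6 dpa group alone.

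No cell division gene was called. In limma 0 of 37 DNA replication genes and 0 of 47 mitosis genes were called, and in both lists 0 had an unadjusted p under 0.05. The medians were -0.27 and -0.09. Pcna, the sliding clamp of DNA polymerase, was at 182 and 76.0 FPKM at 6 dpa and at 94.2 and 106 FPKM at 9 dpa, and ccnb1, the mitotic cyclin B, at 16.3 and 5.81 FPKM and then at 9.47 and 8.77 FPKM. Both 9 dpa values lay within the span of the 6 dpa replicates. Leaving out 6 dpa replicate 1 turned the medians to 0.30 and 0.44, over the 37 and 43 genes that then passed the filter. Without 6 dpa replicate 2 they were -0.85 and -0.60, over 40 and 49 genes, with pcna at -0.86 and ccnb1 at -0.77.

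Matrix genes were spread in the same way. Of 7 collagen chains and 24 matricellular and fibronectin genes 0 were called in limma, and 0 had an unadjusted p under 0.05. Fn1a, a fibronectin of the regenerating heart, was at 119 and 41.9 FPKM at 6 dpa and at 43.7 and 83.3 FPKM at 9 dpa, and postnb, a periostin, at 224 and 105 FPKM and then at 88.8 and 335 FPKM. Col1a1a was at 500 and 228 FPKM and then at 255 and 343 FPKM, and was called lower without 6 dpa replicate 2 (-0.76). These were above the 0 dpa values of 11.9 and 18.0, 24.4 and 32.4, and 93.6 and 74.1 FPKM. Of 24 matrix enzymes and inhibitors 1 was called lower (4.17%, beside 3.11% of all genes called lower). This was serpinh1b, the collagen chaperone HSP47, which fell from 8.31 and 5.64 FPKM to 3.99 and 3.29 FPKM. It lost its call without 6 dpa replicate 1 (-0.52) or either 9 dpa library, and without 6 dpa replicate 1 this list had 3 genes called higher and 0 lower. Of 16 epicardial genes 1 was called lower (6.25%, beside 3.11% of all genes called lower). This was cxcl12a, a chemokine of the epicardium, which was called in 1 of the 4 fits with a library left out. Tcf21 was at 68.6 and 63.8 FPKM and then at 42.5 and 67.6 FPKM.

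In the endothelium 3 of 35 genes were called higher and 0 lower (8.57%, beside 3.56% of all genes called higher), with a median of -0.08. The direction turned without 6 dpa replicate 1, with 0 called higher and 4 lower, and was split without 9 dpa replicate 1, with 2 each way. After rescaling without haemoglobin 1 was called higher and 2 lower. Flt1, a receptor for VEGF, was at 11.4 and 16.9 FPKM at 6 dpa and at 48.5 and 26.9 FPKM at 9 dpa (log2 fold change 1.32, SE 0.34, limma adjusted p = 0.527), and was not called without 6 dpa replicate 1 (1.05). Egfl7 and tek were the others, at log2 fold changes of 0.71 and 0.63. Each lost its call without 6 dpa replicate 1 (0.50 and 0.54) or 9 dpa replicate 2 (0.58 and 0.44), egfl7 also without 9 dpa replicate 1 (0.84) and tek without 6 dpa replicate 2 (0.73). The ligand genes vegfaa and vegfab rose, vegfaa from 5.69 and 9.36 FPKM to 15.6 and 21.0 FPKM (log2 fold change 1.20, SE 0.28) and vegfab from 27.0 and 20.5 FPKM to 50.5 and 37.0 FPKM. Vegfaa was not called without 6 dpa replicate 1 (0.88), nor vegfab without 6 dpa replicate 2 (0.66) or 9 dpa replicate 1 (0.63). They were the calls among 34 growth factor, receptor and insulin-like growth factor genes (5.88%, beside 3.56% of all genes called higher). The median of that list was -0.05, and lay between -0.07 and 0.11 with 1 library left out. Kdrl, the main VEGF receptor of zebrafish vessels, was at 29.3 and 43.2 FPKM and then at 47.0 and 36.6 FPKM, with overlapping groups.

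Of 30 BMP signalling genes 1 was called, id1 (3.33%, beside 6.67% of all genes called either way). It encodes an inhibitor of bHLH factors that BMP Smads induce, and was at 151 and 142 FPKM at 6 dpa and at 75.1 and 110 FPKM at 9 dpa (log2 fold change -0.68). It kept its call only without 9 dpa replicate 2, and stood at -0.41 without 9 dpa replicate 1. Without 6 dpa replicate 2 the list had 1 gene called higher and 0 lower. Bmp4, a ligand, was below the filter at 1.51 and 0.927 FPKM and then at 2.49 and 1.11 FPKM. Among 38 enzymes and readers of H3K9 acetylation and methylation, the marks that the series profiles elsewhere, 0 were called in limma and 0 had an unadjusted p under 0.05, with a median of -0.12. In Notch and Wnt signalling 3 of 44 were called, all lower (6.82%, beside 3.11% of all genes called lower), but 3 were called each way without 6 dpa replicate 2. Fzd9b, a Frizzled receptor for Wnt ligands, was at 46.4 and 29.0 FPKM and then at 17.7 and 19.0 FPKM, and lost its call without 6 dpa replicate 1 (-0.63) or 9 dpa replicate 1 (-0.91). Fzd10 was at 5.73 and 7.92 FPKM and then at 2.99 and 2.88 FPKM, and was not called without 6 dpa replicate 2 (-0.77).

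The listed FPKM of haemoglobin genes differed between the time points most in 1 symbol. Hbaa1, an adult alpha globin, was listed at 0 in both 6 dpa libraries and at 86446 and 66099 FPKM at 9 dpa, with 67806 and 38020 FPKM at 0 dpa. Mb, myoglobin, was at 20788 and 17856 FPKM at 6 dpa and listed at 0 in both 9 dpa libraries. Whether these listed 0 values stand for absent RNA was not tested. The total FPKM of a library was 842513 and 803421 at 6 dpa and 1056590 and 958048 at 9 dpa. Among 7 other haemoglobin genes tested, 2 were called higher and 1 lower (42.9%, beside 6.67% of all genes called either way). Si:ch211-5k11.8, called higher, was at 21958 and 13912 FPKM and then at 22514 and 41437 FPKM (log2 fold change 0.81). It was called in 5 of the 14 alternatives that kept it, and stood at 0.37 without 9 dpa replicate 2. Hbaa2, another alpha globin gene, was at 7476 and 7889 FPKM and then at 5713 and 4216 FPKM (log2 fold change -0.65). It was not called without 6 dpa replicate 1 (-0.68) or 9 dpa replicate 2 (-0.43). How reads shared by gene copies were counted is not given in the sources used here. Hbae1, an embryonic globin, was at 7.47 and 10.9 FPKM and then at 342 and 22.0 FPKM (3.14, SE 1.11), with 9 dpa replicate 1 far above the rest, and lost its call without 6 dpa replicate 1 (2.90). Leaving out 9 dpa replicate 1 gave hbae1 a log2 fold change of 1.19, and leaving out 9 dpa replicate 2 gave 5.09. Of 34 other red blood cell genes 2 were called higher and 2 lower (11.8%, beside 6.67% of all genes called either way). These became 0 and 6 when 9 dpa replicate 1 was left out, but 5 and 1 when replicate 2 was. Urod, an enzyme of haem synthesis, was at 14.4 and 9.54 FPKM and then at 38.0 and 21.7 FPKM, and slc25a37, the mitochondrial iron importer mitoferrin, at 14.7 and 10.6 FPKM and then at 6.59 and 4.25 FPKM. Urod lost its call without 9 dpa replicate 1 (0.83) and slc25a37 without 6 dpa replicate 1 (-0.88). Alas2, the haem enzyme of red blood cells, was at 1432 and 1141 FPKM and then at 1486 and 917 FPKM and was not called.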

How the data were processed

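RNA was measured in heart tissue of 2 libraries each at 6 and 9 dpa. STAR alignments to danRer10 were converted by the authors to FPKM in Cufflinks, while the submitters' processing notes name Cuffdiff. The deposited FPKM values were used as given, without further scaling. Versions of these tools and the gene annotation are not given in the sources used here, nor is how reads shared by gene copies were counted. Of the symbols tested, 99.4% matched a RefSeq name.

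Expression on the log2(FPKM + 1) scale was fitted in limma (version 3.58.1, R 4.3.3) with 2 residual degrees of freedom and an empirical Bayes trend, checked on simulated data. The test that the study names needs counts and was not used. Called genes had P below 0.05, differed by 1.5-fold or more and averaged 3 FPKM or more in 1 group. Python 3.11.15 with pandas 2.3.3, numpy 2.4.6 and matplotlib 3.10.9 served for tables and plots. Low FPKM values fall in steps, which were compared between libraries. Among low genes with nearly equal values, the other libraries stood at a median of 0.946 to 1.06 times 6 dpa replicate 1. These genes were 25.5% to 35.9% of the low genes compared, so a larger difference in depth could not show in these values. The paper itself lists similar numbers of uniquely mapped reads for the 4 libraries.

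The genes and the 41 gene lists were chosen with earlier results of these data known. Named by rule were the 12 largest called changes each way among genes with a ratio of at least 1.5 in all 4 pairs of libraries and symbols that are not clone-based, up to 3 called members each way of any list with 3 or more calls, genes past the adjusted p-value, fkbp5, krt5, bmp4, and the 2 genes left out. Other genes were picked from the lists, or from the 72 genes called in every fit, after their values were seen. The 0 dpa libraries were outside the fit, and the ChIP-seq samples were not analysed here.

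The 15 alternatives were a pseudocount of 0.1, no FPKM filter, a minimum of 1 FPKM, median-ratio scaling, haemoglobin genes removed with each library rescaled to the same sum, a fit of all 6 libraries, a replicate block with and without median-ratio scaling, no trend, the 2 genes kept, fold changes from group means, and leaving out each library. With a library left out, 1 residual degree of freedom remains and the lone library is assumed to vary like the other group. The FPKM filter was applied anew to the libraries of each fit, so the genes tested in a list can differ between fits.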

Additional observations from a re-analysis of the deposited data

How the results depend on the processing

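No gene called here was called in the other direction under any alternative, as all calls shared with the 611 kept their sign. The balance of calls within a list did turn: for the endothelium, immediate early genes and matrix enzymes without 6 dpa replicate 1, glycolysis and immediate early genes without 9 dpa replicate 1, clock repressors and BMP signalling without 6 dpa replicate 2, the haemoglobins with no FPKM filter, and the list of clock activators and the endothelium after rescaling without haemoglobin. Over all genes it turned to more lower than higher calls after that rescaling, with no trend, with no FPKM filter, at a minimum of 1 FPKM, and without any library except 9 dpa replicate 2. The 611 calls became 311 in the fit of all 6 libraries, of which 291 were shared with the 611, and lay between 468 and 767 with 1 library left out. Genes called higher (326) were 144 after rescaling without haemoglobin and 181 in the fit of all 6 libraries, and between 160 and 329 with 1 library left out. Genes called lower (285) were 574 and 130 in the same fits, and between 189 and 444. The 2 genes past the adjusted p-value in limma became 0 with no FPKM filter, median-ratio scaling, rescaling without haemoglobin, the fit of all 6 libraries, no trend, or the replicate block with or without median-ratio scaling, where 915, 880, 948, 319, 714, 1001 and 942 genes were under an unadjusted p of 0.05 for no filter, median-ratio scaling, rescaling, 6 libraries, no trend, block with scaling and block. They were 1 at a minimum of 1 FPKM, 4 with hbaa1 and mb kept, and between 0 and 139 with 1 library left out.

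Respiratory chain calls (40) were 9 after the rescaling and 7 in the fit of all 6 libraries, and 18 to 39 with 1 library left out. Macrophage and neutrophil genes called lower (16) were 27 and 3 in those fits, and 9 to 31. Interferon genes called lower (10) were 0 in the fit of all 6 libraries, and 7 to 15. Chemokine genes called lower (17) were 5 there, and 11 to 17. With 1 library left out, up to 2 members of these 3 immune lists were called higher. Glucocorticoid response calls (5) were 3 to 8 with 1 library left out. The causes were not tested; fewer libraries leave fewer degrees of freedom. Of 74 called genes named by rule, 21 were called in all 15 alternatives.

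Deviations of same-numbered libraries correlated at 0.011 across 9155 genes. One correlation over all genes cannot show a replicate effect shared by only part of them. Whether the replicate numbers pair the samples was therefore not settled. With the replicate block limma called 624 genes (341 higher, 283 lower), and 669 with median-ratio scaling. The paper lists similar numbers of uniquely mapped reads for these libraries. The FPKM table carries no read counts per gene, so the counts behind low genes are unknown, and 2 libraries a group limit every p-value.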
